A study of Mus musculus with 8 samples.

Results

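The genes followed here are 8 that encode platelet membrane glycoproteins or platelet granule chemokines: Gp6, Gp9, Gp1ba, Gp1bb, Itga2b, Itgb3, Pf4 and Ppbp. All 8 had a probe on the array, 11 matched probes in total, and they are 8 of the 20887 genes that a probe could be matched to. The members were chosen by their log2 differences between LPS-treated and immature arrays, with Gp6 seen among the strongest increases, and by their known place in platelets, so the differences of these genes between the groups are descriptions and carry no test. The LPS-treated group consists of 4 arrays of cells given lipopolysaccharide (LPS), a bacterial cell wall component, at 50 ng/ml overnight and labelled day 7. The immature group consists of 4 arrays of cells on day 6 that received no LPS. In both groups the cells are mouse dendritic cells, the antigen-presenting cells of the immune system, grown from bone marrow monocytes of C57BL/6 females in GM-CSF at 10 ng/ml with IL-4. No array was made of cells kept to day 7 without LPS, so the extra day and the LPS cannot be told apart. The labels do not say whether the 4 replicates of a group came from separate animals or cultures, so a standard error here measures the spread between these samples, which may be technical.

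Platelets are shed by megakaryocytes in the bone marrow, and several receptors on their surface carry them through adhesion and aggregation. GPVI, the product of Gp6, is an immunoglobulin-like receptor for collagen and fibrin that signals through the Fc receptor gamma chain and the kinase Syk. The GPIb-IX complex, made of the products of Gp1ba, Gp1bb and Gp9, binds von Willebrand factor, and the integrin alphaIIb-beta3, made of the products of Itga2b and Itgb3, binds fibrinogen. Pf4 (CXCL4) and Ppbp (the precursor of CXCL7) are chemokines that platelets store in their alpha granules. Beta3 integrin is also carried by osteoclasts and macrophages, where it pairs with the alphaV chain.

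Promoter sequence was at hand for 7 of the 8 genes, from RefSeq on build GRCm38.p6. The windows run from 250 bases before a start listed for the gene to 50 bases after it. For Gp6, Gp9 and Gp1ba that start lies inside the gene as annotated. The Gp6 gene spans chr7:4362853-4397851, so part of the bases shown for it lie within the gene. The Gp9 window lies wholly inside its gene, and the Gp1ba window lies partly inside its gene. The 250 bases before the start are shown for 4 genes: Gp6, the member with the largest difference between the groups, the neighbouring chemokine genes Ppbp and Pf4, and Itga2b, a gene of the platelet integrin. Capitals mark matches to 6 short motifs searched on both strands: the NF-kB motif (GGG and CC with any 5 bases between them), the interferon-stimulated response element (GAAA and GAAA with any 2 bases between them), the GATA motif AGATAA, the ETS motif CGGAAG, the PU.1 motif GAGGAAG and the AP-1 motif TGANTCA. The Gp6 window lies at chr7:4397745-4397994 on the minus strand, the Ppbp window at chr5:90768268-90768517 on the plus strand, the Pf4 window at chr5:90772185-90772434 on the plus strand and the Itga2b window at chr11:102469884-102470133 on the minus strand.
Gp6: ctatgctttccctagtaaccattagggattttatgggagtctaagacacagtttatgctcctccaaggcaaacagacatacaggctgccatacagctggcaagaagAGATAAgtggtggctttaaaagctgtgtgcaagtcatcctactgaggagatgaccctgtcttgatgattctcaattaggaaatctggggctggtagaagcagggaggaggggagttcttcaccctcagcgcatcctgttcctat
Ppbp: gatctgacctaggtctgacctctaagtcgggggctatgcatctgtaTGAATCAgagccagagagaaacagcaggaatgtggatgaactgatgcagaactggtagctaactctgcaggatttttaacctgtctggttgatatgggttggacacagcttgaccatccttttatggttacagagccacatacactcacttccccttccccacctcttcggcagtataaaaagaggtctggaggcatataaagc
Pf4: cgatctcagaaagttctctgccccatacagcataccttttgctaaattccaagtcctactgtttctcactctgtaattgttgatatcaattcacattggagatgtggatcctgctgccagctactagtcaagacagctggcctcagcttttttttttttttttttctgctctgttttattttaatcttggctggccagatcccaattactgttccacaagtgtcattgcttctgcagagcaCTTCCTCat
Itga2b: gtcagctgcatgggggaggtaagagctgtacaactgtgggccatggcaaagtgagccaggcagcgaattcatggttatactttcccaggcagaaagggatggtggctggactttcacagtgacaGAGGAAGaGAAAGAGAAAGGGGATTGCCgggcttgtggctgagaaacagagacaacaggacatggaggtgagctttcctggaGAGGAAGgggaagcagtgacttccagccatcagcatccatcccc
In Gp6 the capitals are 1 GATA match, whose first base lies at -144 from the start used for the window. The match is outside the annotated gene and nearer to the start of that gene. No NF-kB, interferon-stimulated, ETS, PU.1 or AP-1 letters were in the window. In Ppbp they are 1 AP-1 match at -204. In Pf4 they are 1 PU.1 match at -9, on the opposite strand, and a GATA match at 37 lies in the bases after the start that are not shown. In Itga2b they are PU.1 matches at -126 and -44, an interferon-stimulated match at -118 and an NF-kB match at -108, with further, overlapping NF-kB matches in the 50 bases after the start. Of the windows not shown, that of Gp9 held 2 NF-kB matches and 1 PU.1 match, that of Gp1bb held 1 ETS and 1 AP-1 match, and that of Gp1ba held none of the 6. Among 32851 promoter windows of the same length, 50.8% held the NF-kB letters, 3.44% the interferon-stimulated letters, 11.2% the GATA, 16.9% the ETS, 13.6% the PU.1 and 7.81% the AP-1 letters. These matches describe letters in a window and not sites that a factor was seen to occupy.

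Levels are log2 processed signals relative to the 75th percentile of the array, so 0 is the level of that percentile and a difference of 1 is a doubling. They are set side by side only between arrays and never between probes, though the summed levels of 2 marker lists add up different probes. The LPS-treated arrays had 47.5% to 48.4% of spots well above background, and the immature arrays had 47.7% to 51.3%. No spot was saturated. All 8 arrays lie on 1 slide, the LPS-treated arrays in its row 2 and the immature arrays in its row 1, so slide row and treatment cannot be told apart. Immature replicate 3 stood apart: the median absolute difference in level between it and the other immature arrays was 0.254 to 0.387, against 0.0941 to 0.204 among the other 3. The 9 dendritic cell markers listed were all measured, with 4 higher and 3 lower after LPS in the limma test at an adjusted p threshold of 0.05. One of them, the lectin Cd209a, was not well above background on any LPS-treated array and was at least 38.2-fold lower there.

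Gp6, the collagen receptor, was bright in the LPS-treated cells and dim in the immature cells. Its processed signals were 4549, 5353, 2998 and 7239 on the 4 LPS-treated arrays, against 71.0, 87.6, 134 and 90.0 on the 4 immature arrays. All 8 spots were well above background, so this is a difference between 2 measured levels and not a bound. On the log2 scale the levels were 3.46, 3.75, 2.93 and 4.11 in the LPS-treated cells and -2.79, -2.45, -1.77 and -2.32 in the immature cells. The lowest LPS-treated array was thus far above the highest immature array, which was replicate 3. The difference of the means was 5.89 ± 0.28 (log2, SE from the limma fit, n = 4 each), or 59.4-fold, the rank 2 increase among the 11939 genes above background on all 8 arrays. This Gp6 difference rests on 1 matched probe with 1 spot per array, so no other probe stands beside it. Without immature replicate 3 the difference was 6.08. A milder background correction, which draws dim signals up, gave 4.99.

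**Figure D1:**
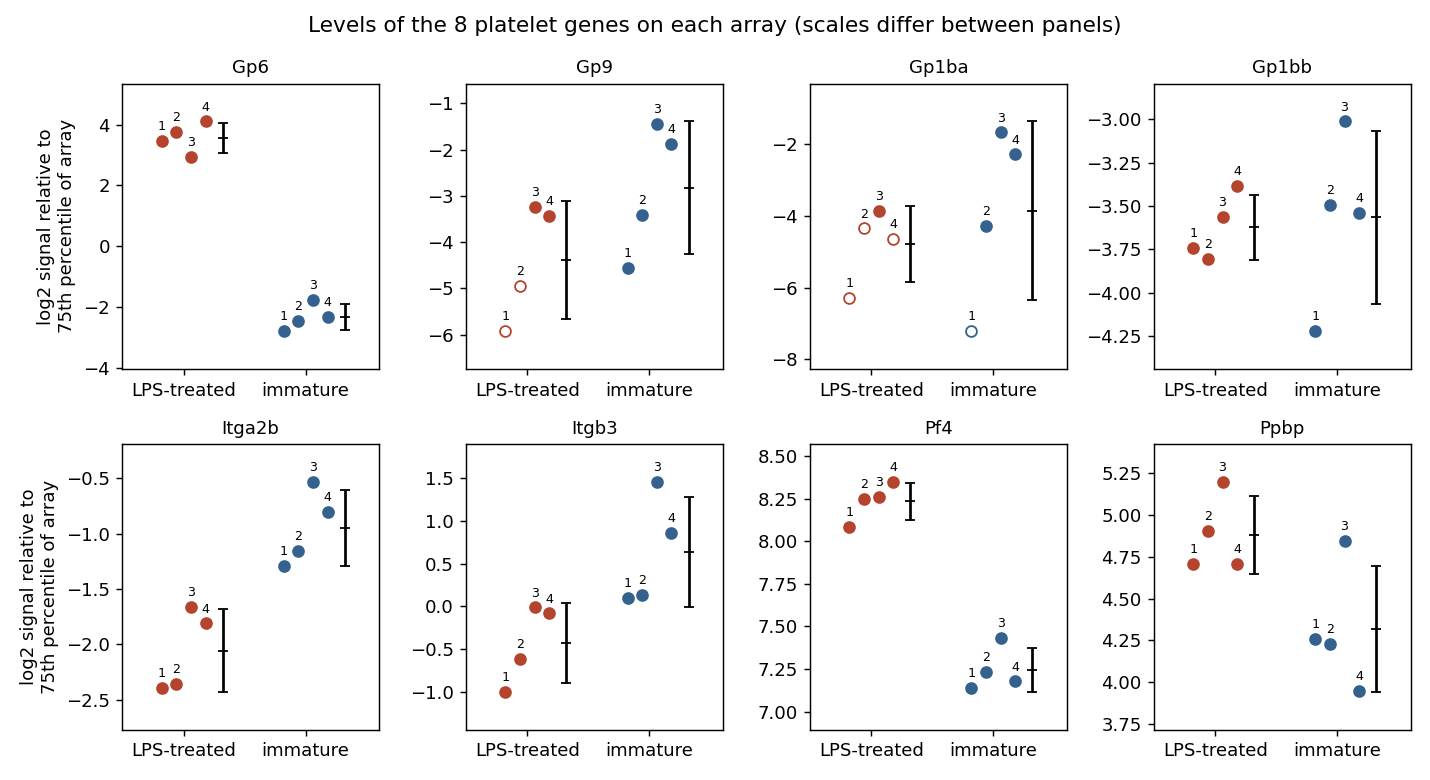
Log2 signal relative to the 75th percentile of the array (y axis) for the 8 genes, with the 4 LPS-treated arrays to the left of the 4 immature arrays in each panel; numbers are replicate numbers, open circles are spots not well above background, and bars are the mean and SD. Gp6 and Pf4 lie higher in all LPS-treated arrays, Itga2b and Itgb3 lie lower, and the groups of Gp9, Gp1ba, Gp1bb and Ppbp overlap.

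The genes of the GPIb-IX complex were close to background and their groups overlapped. Gp9, the subunit without which the complex is poorly held at the platelet surface, had levels of -5.92, -4.95, -3.25 and -3.43 on the LPS-treated arrays and -4.56, -3.42, -1.45 and -1.88 on the immature arrays. Only LPS-treated replicates 3 and 4 were well above background, while all 4 immature arrays were. The difference of the values as listed was -1.56 ± 0.82, beside an SD of 1.28 among the LPS-treated arrays and 1.43 among the immature arrays. Since 2 LPS-treated values are not measured levels, this is no exact difference: with those raised to the lowest level well above background on their arrays Gp9 was 1.96-fold lower, and the milder background correction gave -0.59.

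Gp1ba, the subunit that holds the binding site for von Willebrand factor, had levels of -6.30, -4.35, -3.86 and -4.65 on the LPS-treated arrays and -7.21, -4.27, -1.68 and -2.29 on the immature arrays. It was above background on 1 LPS-treated array and 3 immature arrays and therefore did not enter the fit. The difference of its means, -0.92, was -0.33 with the milder background correction, -0.20 without immature replicate 3, -0.40 without immature replicate 4 and -0.42 without LPS-treated replicate 1. Without immature replicate 1 it was -2.04. Gp1bb, the beta subunit, had levels of -3.74, -3.81, -3.56 and -3.38 on the LPS-treated arrays and -4.22, -3.49, -3.01 and -3.54 on the immature arrays, all above background. Its difference was -0.06 ± 0.23 and turned positive, at 0.13, without immature replicate 3. This value comes from the brightest of 3 Gp1bb probes, and the other 2 were above background on no array. Gp1bb overlaps Septin5 in the annotation, so its signal is uncertain.

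Both integrin genes were measured on all 8 arrays and both lay lower in the LPS-treated cells. Itga2b, the alphaIIb chain, had levels of -2.39, -2.36, -1.66 and -1.81 on the LPS-treated arrays and -1.29, -1.16, -0.54 and -0.80 on the immature arrays. The groups did not overlap, and the difference was -1.11 ± 0.22, or 2.16-fold lower. With the milder background correction it was -0.69. In bulk RNA, fewer cells of a type and less RNA per cell cannot be told apart.

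Itgb3, the beta3 chain, had levels of -1.004, -0.62, -0.01 and -0.08 on the LPS-treated arrays and 0.10, 0.13, 1.46 and 0.86 on the immature arrays. These groups did not overlap either, though the highest LPS-treated and the lowest immature arrays lay close together. The difference was -1.07 ± 0.34, or 2.10-fold lower, and -0.79 without immature replicate 3. A second, dimmer Itgb3 probe was above background on 1 LPS-treated and 3 immature arrays, with a difference of -0.28.

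Both chemokine genes were bright in both groups and lay higher in the LPS-treated cells. Pf4 had levels of 8.08, 8.25, 8.26 and 8.35 on the LPS-treated arrays and 7.14, 7.23, 7.43 and 7.18 on the immature arrays. The groups were far apart relative to the spread within them, and the difference was 0.99 ± 0.09, or 1.98-fold. Ppbp had levels of 4.71, 4.91, 5.20 and 4.71 on the LPS-treated arrays and 4.26, 4.23, 4.84 and 3.95 on the immature arrays. Immature replicate 3 lay above 2 of the LPS-treated arrays, so these groups overlapped. The Ppbp difference was 0.56 ± 0.20, or 1.48-fold, and 0.74 without that array.

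Thus 7 of the 8 genes entered the fit, and in 4 of them, Gp6, Pf4, Itga2b and Itgb3, all arrays of a group lay on the same side of all arrays of the other. Among all 12706 genes tested, 52.4% were separated in this way (30.1% higher and 22.3% lower after LPS), and since these genes were listed from the same comparison nothing is read from their count. The 8 genes did not move as a block: the collagen receptor and the chemokines lay higher after LPS, the alphaIIb and beta3 chains lay lower, and the 3 GPIb-IX genes were close to background and did not separate.

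**Figure D2:**
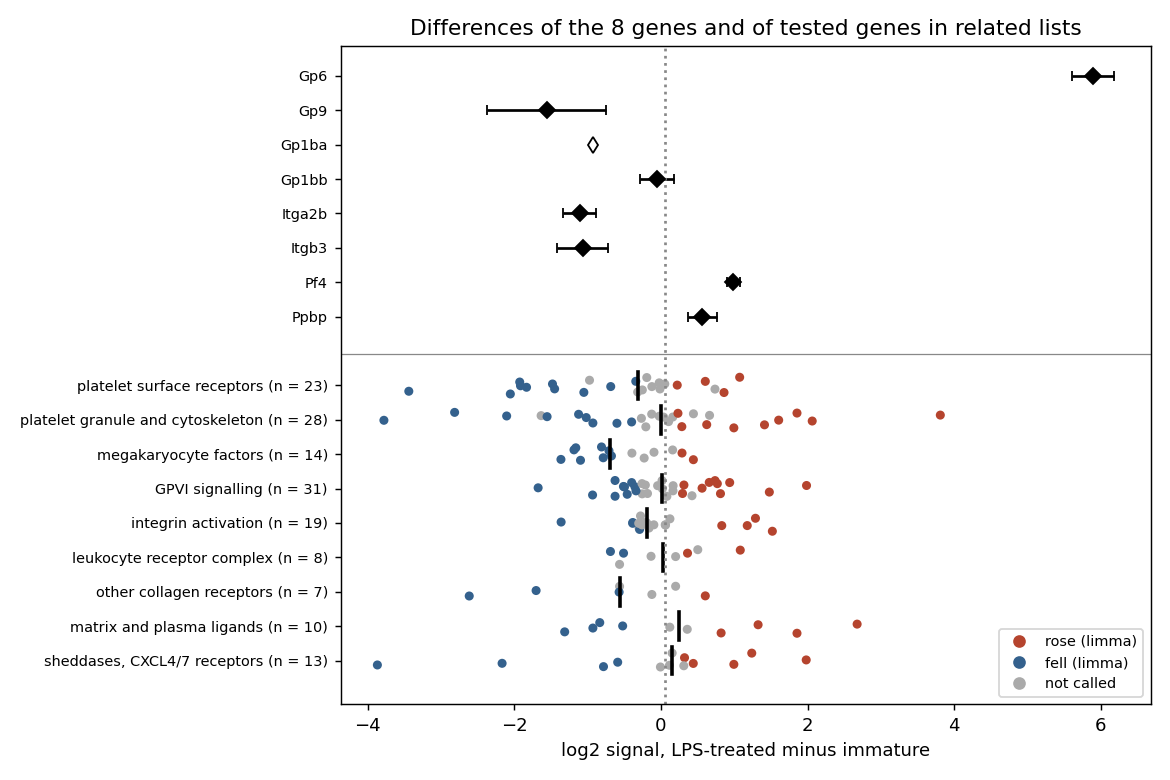
Difference in log2 signal, LPS-treated minus immature (x axis), for the 8 genes (diamonds with SE, n = 4 each; Gp9 was above background on 2 LPS-treated arrays only, and Gp1ba, open, did not enter the fit) and for each tested gene of 9 related lists (dots, coloured by the limma call; black ticks are list medians). The dotted line is the median of all genes tested, 0.06; Gp6 at 5.89 lies beyond every dot, and the megakaryocyte factors have the lowest list median, -0.69.

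Replicates of the same number showed a similar order in some of these genes, a pattern looked for after the values had been seen. For Gp9, Itga2b and Itgb3, replicates 3 and 4 were the 2 highest arrays in both groups, as was the case for 713 of the 12706 genes tested, or 5.61%. Gp6 and Gp1ba had this order among the immature arrays only, Gp1bb and Pf4 among the LPS-treated arrays only, and Ppbp in neither group. For Gp6, LPS-treated replicate 3 was the lowest of its group. The gene whose 8 values lay closest to those of Gp9, each centred on its mean, was Cavin2, a caveolae gene that platelets express abundantly, with a root mean square difference of 0.37. LPS-treated replicates 1 and 2 were not well above background for either gene, so this likeness rests in part on values that are not measured levels. Its levels were -6.62, -4.34, -3.43 and -3.51 on the LPS-treated arrays and -4.72, -3.71, -1.18 and -1.76 on the immature arrays. Of the 9 tested megakaryocyte and platelet markers, 1 had this order: Treml1, a receptor of platelet and megakaryocyte granules, with -0.69, -0.42, -0.24 and 0.01 on the LPS-treated arrays and -0.26, 0.36, 1.66 and 0.80 on the immature arrays. In the related lists the order was found in 3 of 23 tested platelet surface genes, 4 of 28 platelet granule and cytoskeleton genes and 0 of 14 megakaryocyte transcription factors. The ADP receptor P2ry1, by contrast, had levels of -0.93, -0.94, -0.51 and -0.77 on the LPS-treated arrays and 0.64, 0.98, -0.49 and -0.07 on the immature arrays, where replicates 3 and 4 were the 2 lowest. Whether platelet RNA differed between the samples was not tested.

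**Figure D3:**
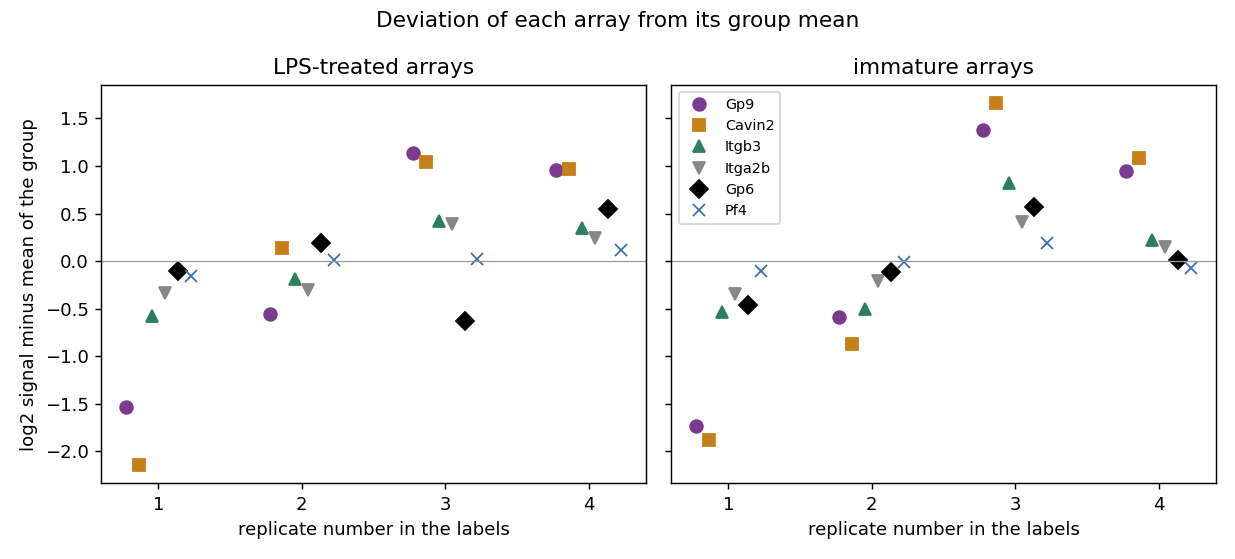
Deviation of each array from the mean of its group (y axis, log2 signal) by replicate number (x axis), in LPS-treated arrays on the left and immature arrays on the right. Gp9, Cavin2, Itgb3 and Itga2b are above their group mean in replicates 3 and 4 of both groups, while Pf4 stays within a narrow band and Gp6 has its lowest LPS-treated value in replicate 3.

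The genes whose profile over the 8 arrays was most like that of Gp6 were Nts, Saa1, Saa3, Il6 and Zfp811, with root mean square differences of 0.22, 0.28, 0.31, 0.33 and 0.36. Nts encodes the peptide neurotensin, Saa1 and Saa3 encode acute-phase serum amyloid A proteins and Il6 encodes an inflammatory cytokine. Saa3 had levels of 9.14, 9.35, 9.30 and 9.45 on the LPS-treated arrays and 2.74, 3.47, 3.85 and 3.73 on the immature arrays. Il6 had 5.95, 5.97, 6.25 and 6.96 on the LPS-treated arrays and 0.26, 0.48, 1.27 and 0.77 on the immature arrays. Nts and Zfp811 were not well above background on any immature array, so their immature values are not measured levels. The likeness of Nts and Zfp811 to Gp6 therefore rests in part on such values. With a difference this large between the groups, likeness over 8 arrays mostly measures the size of that difference.

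The neighbours of each member were the 2 nearest protein-coding genes with a probe on each side in the annotation. Genes without a probe were passed over. Ppbp and Pf4 lie side by side on chromosome 5 between Cxcl5 and Cxcl3, both of which encode chemokines that attract neutrophils through CXCR2. Cxcl5 had levels of 2.73, 3.05, 3.44 and 3.91 on the LPS-treated arrays and -2.88, -2.43, -2.03 and -2.18 on the immature arrays, and Cxcl3 had 6.79, 6.99, 6.69 and 7.39 on the LPS-treated arrays and 3.46, 3.93, 3.78 and 3.64 on the immature arrays. Both rose, Cxcl5 by 5.66 ± 0.27 (limma adjusted p = 2.04e-06) and Cxcl3 by 3.27 ± 0.17 (limma adjusted p = 2.58e-06), higher on 4 of 4 arrays. These values stand beside 0.99 for Pf4 and 0.56 for Ppbp between them, and whether the 4 differences are unequal was not tested. Cxcl15 and Rassf6, the next genes outwards, were above background on no array.

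**Figure D4:**
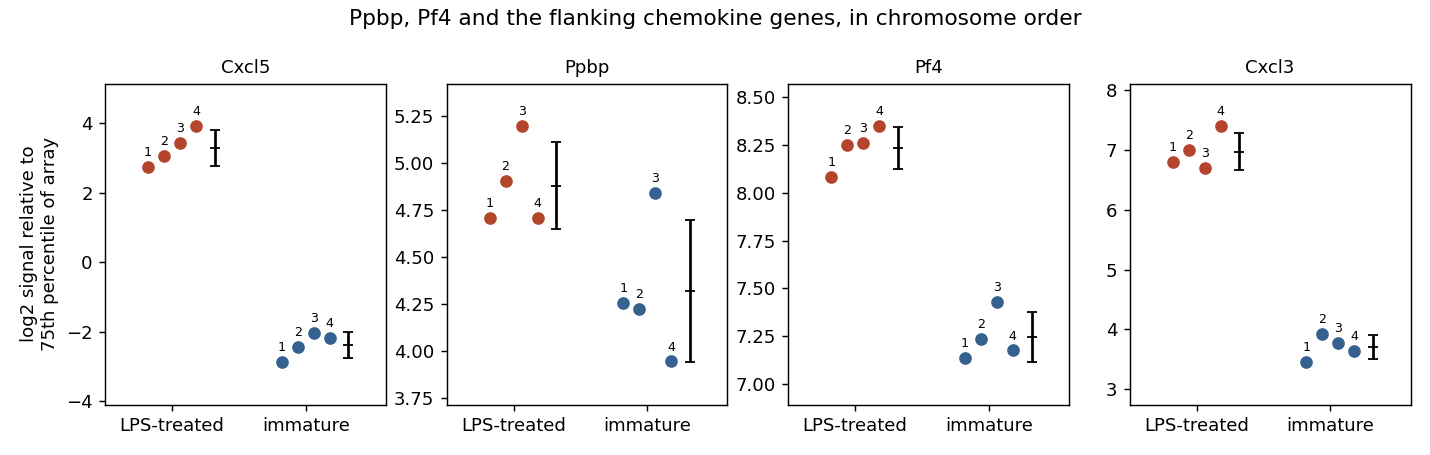
Log2 signal relative to the 75th percentile of the array (y axis) for Cxcl5, Ppbp, Pf4 and Cxcl3 in chromosome order, LPS-treated arrays to the left of immature arrays, with mean and SD bars; scales differ between panels. The LPS-treated minus immature differences are 5.66, 0.56, 0.99 and 3.27.

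Around Gp6 on chromosome 7 no tested neighbour passed the threshold. Lilra5, an activating leukocyte receptor gene, differed by 0.50 ± 0.40 (limma adjusted p = 0.318). Rdh13, a retinol dehydrogenase gene, differed by -0.31 ± 0.14 (limma adjusted p = 0.0817), and it passed, as lower, when arrays were scaled otherwise (to the median or to detected probes), left unscaled, or without immature replicate 3. Eps8l1 differed by 0.64 ± 0.43 (limma adjusted p = 0.235) and passed without immature replicate 3, at 1.02 (limma adjusted p = 0.027). Ncr1, a natural killer cell receptor gene, was above background on no array. Beside the other members, Septin5 fell by 0.41 next to Gp1bb and Grn by 0.22 near Itga2b. Mettl2, about 455950 bases from Itgb3, fell by 0.75. Isy1, Slc25a11 and Gpatch8 rose by 0.38, 0.40 and 0.27 near Gp9, Gp1ba and Itga2b. Isy1, Slc25a11 and Gpatch8 lost their calls when arrays were scaled to the median or left unscaled, Isy1 and Slc25a11 also when replicates 1 and 2 were averaged, Septin5 with the milder background correction, Grn in 6 of the alternatives, and Mettl2 with that averaging. Rab43 and Cdc27 did not pass the threshold. Rnf167, 4930544D05Rik, Gnb1l and Myl4 did not pass it either but did in some alternatives: Rnf167 without immature replicate 3, 4930544D05Rik on unscaled arrays, Gnb1l on unscaled or median-scaled arrays, and Myl4 with the milder background correction, with the replicate number as a block, without LPS-treated replicate 4 or without immature replicate 2.

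Across all 12706 genes tested, 56.1% passed the limma threshold, 31.4% higher and 24.7% lower after LPS, with a median difference of 0.06. Every list count below is to be read against those shares. The lists were written with results of these data known. Of 34 other platelet surface receptor and adhesion genes, 33 had a probe, 23 were tested, 4 rose and 10 fell (60.9% called, median -0.32). F2rl2, the thrombin receptor PAR3, was above background on 1 LPS-treated array and all immature arrays and was at least 5.88-fold lower after LPS (limma adjusted p = 0.00107). Siglecf, a sialic acid-binding lectin best known from eosinophils, fell by 2.05 (SE 0.37, limma adjusted p = 0.00174). It is also counted among the eosinophil markers below, so this fall is not particular to platelet genes. Ptger3, a prostaglandin E2 receptor, was above background on no LPS-treated array and was at least 2.33-fold lower (limma adjusted p = 0.00607). Cd47, a widely expressed signal against phagocytosis, rose by 1.07 ± 0.07 (limma adjusted p = 6.62e-06). Another 7 genes of this list were above background on no array, among them the thrombin receptor F2rl3, the thromboxane receptor Tbxa2r and the inhibitory receptor Mpig6b.

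Of 32 platelet granule, cytoskeleton and enzyme genes, 28 were tested, with 9 higher and 9 lower (64.3% called, median 0.01). Mylk, the myosin light chain kinase, rose by 2.06 and Thbs1, the matrix protein thrombospondin-1, by 1.86 ± 0.30 (limma adjusted p = 7.37e-06 and 0.00104). F13a1, the A subunit of coagulation factor XIII, which monocytes and platelets carry, fell by 3.78 (SE 0.56, limma adjusted p = 0.000671).

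All 14 megakaryocyte transcription factor genes were tested, of which 2 rose and 8 fell (71.4% called, median -0.69). Nfe2, needed for platelet shedding, had levels of 1.94, 2.15, 2.09 and 1.88 on the LPS-treated arrays and 2.88, 2.997, 3.59 and 3.24 on the immature arrays, and fell by 1.16 (SE 0.16, limma adjusted p = 0.00038). Ikzf2, a zinc finger factor, fell by 1.19 (SE 0.10, limma adjusted p = 3.56e-05). Gata1, the central factor of the lineage, chosen for mention after its value was seen, fell by 1.098 (SE 0.11, limma adjusted p = 7.47e-05). Mef2c was above background on 2 LPS-treated arrays and was at least 2.04-fold lower (limma adjusted p = 0.0364), a call lost without LPS-treated replicate 3 or 4 or immature replicate 3 or 4, with the milder background correction, and with the replicate number as a block (limma adjusted p = 0.0996). Meis1, a homeobox factor, rose by 0.44 (limma adjusted p = 0.0234), a call lost when arrays were scaled to the median (0.27) or left unscaled (0.23), with the replicate number as a block (limma adjusted p = 0.0662) and with replicates 1 and 2 averaged (limma adjusted p = 0.0626). No gene of the list was called higher in any of these 4 cases. None of these factors is particular to megakaryocytes, and eosinophils, mast cells and erythroid cells also use several of them.

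Downstream of GPVI, 31 of 32 signalling genes were tested, with 10 higher and 10 lower (64.5% called, median 0.01). Fcer1g, the Fc receptor gamma chain that GPVI needs for expression and signalling, had levels of 8.24, 8.33, 8.27 and 8.57 on the LPS-treated arrays and 7.54, 7.58, 7.61 and 7.43 on the immature arrays, and rose by 0.81 ± 0.09 (limma adjusted p = 0.000153). Syk, the kinase that docks on that chain, rose by 0.74 ± 0.08 (limma adjusted p = 0.000118). The ubiquitin ligase gene Cblb rose by 1.99 ± 0.17, Pik3r1, a regulatory subunit of phosphoinositide 3-kinase, by 1.48 ± 0.08, and Fyn, a Src-family kinase, by 0.94 ± 0.23 (limma adjusted p = 4.08e-05, 4.9e-06 and 0.00842). Prkcb, a protein kinase C, fell by 1.68 (SE 0.09, limma adjusted p = 3.95e-06). In the main setting the list therefore held the receptor's partner chain and its kinase among the genes that rose, and as many genes that fell. With arrays scaled to the median, 8 genes of the list were called higher and 12 lower.

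In the machinery of integrin activation, 19 of 21 genes were tested, with 4 higher and 4 lower (42.1% called, median -0.19). The number lower depended on the scaling, reaching 11 when arrays were scaled to the median. Rasgrp2, the exchange factor that switches on Rap1 in platelets, fell by 1.36 (SE 0.14, limma adjusted p = 9.13e-05). Fyb, an adapter of integrin activation, rose by 1.52 ± 0.21, the kinase gene Src by 1.29 ± 0.23 and Filip1l, a filamin-interacting protein gene, by 1.18 ± 0.10 (limma adjusted p = 0.000401, 0.00172 and 3.52e-05).

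Gp6 lies beside a cluster of immunoglobulin-like receptor genes. Of 15 genes listed for receptors of this kind, wherever they lie, 9 had a matched probe. Pira6, Pira11, Pira12, Pira13 and Lilrb4b were not in the gene list used for matching, so probes for them may have gone unmatched. Of the genes with a matched probe, 8 were tested, with 2 higher and 2 lower (50% called, median 0.03). Tarm1, an activating receptor of myeloid cells, rose by 1.08 ± 0.30 (limma adjusted p = 0.0152), and Pirb, an inhibitory receptor, by 0.36 ± 0.09 (limma adjusted p = 0.00885), a call lost when arrays were scaled to the median (0.19) or left unscaled (0.15), or when replicates 1 and 2 were averaged (limma adjusted p = 0.0624). Lilra6 fell by 0.69 (SE 0.08, limma adjusted p = 0.000223). Pirb and Lilra6 belong to a family of near-identical genes, so their probes may not tell members apart. The Tarm1 value was the highest difference in this list, where Gp6 itself differed by 5.89.

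Of 12 genes listed as other collagen receptors, 7 were tested, with 1 higher and 3 lower (57.1% called, median -0.56). Ddr1, a receptor tyrosine kinase for collagen, fell by 2.62 (SE 0.21, limma adjusted p = 2.56e-05). Cd93, a C-type lectin-like receptor, fell by 1.70 (SE 0.19, limma adjusted p = 0.000129), and its place among collagen receptors is uncertain. Itga1, the alpha1 integrin chain, fell by 0.57 (SE 0.11, limma adjusted p = 0.00254). Itgb1, the beta1 chain that Itga1 pairs with, rose by 0.61 ± 0.09 (limma adjusted p = 0.00074). Itga2, the alpha chain of the other platelet collagen receptor, was above background on no array.

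Of 18 genes for ligands of these receptors, 10 were tested, with 4 higher and 4 lower (80% called, median 0.24). Col5a1, a fibrillar collagen chain, rose by 2.68 ± 0.13 and the laminin chain gene Lamc1 by 1.33 ± 0.10 (limma adjusted p = 2.04e-06 and 1.57e-05), beside Thbs1 as above. Spp1, the integrin ligand osteopontin, fell by 1.31 (SE 0.15, limma adjusted p = 0.000144). Of 14 genes for sheddases and for the processing and receptors of CXCL4 and CXCL7, 13 were tested, with 5 higher and 4 lower (69.2% called, median 0.15). Sdc4, a heparan sulfate proteoglycan, rose by 1.98 ± 0.28, Mmp14, a membrane metalloprotease, by 1.24 ± 0.12 and Srgn, the granule proteoglycan that holds CXCL4, by 0.99 ± 0.08 (limma adjusted p = 0.000535, 6.73e-05 and 2.08e-05). Ctsg, the neutrophil protease cathepsin G that can cut the CXCL7 precursor, fell by 3.87 (SE 0.49, limma adjusted p = 0.000297).

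Markers of other cells moved between the same groups. Of 15 megakaryocyte and platelet markers outside the 8 genes, 9 were tested, and 1 of them was higher after LPS while 6 were lower. Their summed level, in multiples of the 75th percentile of the array, was 15.7 to 18 on the LPS-treated arrays and 26.7 to 36.6 on the immature arrays. In such a sum the probes with the highest signals, here Nfe2, Nbeal2 and Vwf, weigh most. It is therefore no measure of platelet content. Tubb1, the beta1 tubulin of platelets, Mpig6b, F2rl3 and Slc35d3 were above background on no array, and Gp5 and Mmrn1 on at most 2. P2ry12, the platelet ADP receptor that microglia also carry, was above background on 3 LPS-treated and 4 immature arrays. It was 2.79-fold lower with the dim LPS-treated array taken at its own value (limma adjusted p = 0.000536). Of 11 neutrophil markers, 0 rose and 10 fell, with a summed level of 413 to 609 on the LPS-treated arrays and 883 to 1030 on the immature arrays. S100a9, S100a8 and Csf3r weigh most in that sum. The part of such cells in the values of Itga2b, Itgb3 and the GPIb-IX genes was not tested.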

How the data were processed

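Total RNA from 4 LPS-treated and 4 immature samples was labelled with Cy3 and hybridised to one-colour Agilent arrays. Per the file headers and the submitters' processing notes, Agilent Feature Extraction 11.0.1.1 quantified the images. Levels come from the deposited processed signal, a background-subtracted intensity, and 1 alternative from the deposited median intensities of spot and local background. Other deposited columns are flags, 0 or 1, for spots well above background, saturated or outlying.

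Outlier spots were dropped, spots of a probe averaged as log2, and each array's 75th percentile subtracted. Of 55681 probes, 27509 were matched to a single gene by transcript accession in the RefSeq gene list (GRCm38.p6), giving 20887 genes, and 28172 were not. A gene is said to have a probe only where a probe was matched in this way. The array design uses an older build, so no probe position is given. The brightest probe on average stood for a gene, and a gene was tested where all 4 arrays of at least 1 group put it well above background. The 12706 genes were fitted with limma 3.58.1 (R 4.3.3), called at a Benjamini-Hochberg adjusted p of 0.05, two-sided. The fit was tested on simulated data. "At least" folds set dim values to the lowest level well above background on their array, or to their own where higher. Since some dim values lie above that level, these folds are not strict limits. Precision is limited by having 4 arrays a group.

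The 8 genes, the lists and the rules were chosen with earlier results of these data known. Named are the 8 genes, and from each list the 3 largest called changes in the commoner direction and the largest in the other. Also named are 1 marker per cell type, Fcer1g, Syk and 5 genes most like Gp6. The 2 nearest protein-coding genes with a probe on each side of each member are named as well. Gata1, Cavin2, Treml1, P2ry1, single platelet genes at background and the replicate order were picked after values were seen. Some genes that these rules name are not reported here. Alternatives covered scaling, background correction, filters, probes, outlier spots, replicates and unmatched probes. The milder background correction is normexp with an offset of 50 on the median intensities, since mean intensities were not used here. Figures used matplotlib 3.10.9, pandas 2.3.3 and numpy 2.4.6 in Python 3.11.15.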

Additional observations from a re-analysis of the deposited data

Results flagged for a closer look

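Among the genes named, the 4 values of each group were checked for 1 array far from the other 3, which was the case in 3 of 118 groups. Chance alone would pick out about 1 group in 20. Pik3r1 on LPS-treated replicate 3 had a level of 2.04, against 1.745 to 1.771 on the other LPS-treated arrays. Filip1l on LPS-treated replicate 3 had a level of 3.695, against 3.893 to 3.923 on the other LPS-treated arrays. Dcn, a fibroblast proteoglycan gene, had a level of -3.636 on immature replicate 1, the only immature array where it was above background, against -6.795 to -6.301 on the other immature arrays. None of the 8 platelet genes had such an array in either group.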

How the results depend on the processing

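Of 580 values recomputed for the 8 genes and the counts of called genes, 44 moved, counts by over 1.5 times and differences by over 1 SD of the replicates; the other 536 stayed within those bounds, which are wide for the genes near background. No value of a called gene changed direction. Scaling to the array median moved the median of all genes to -0.12 and leaving arrays unscaled to -0.15, against 0.06: genes called higher then numbered 2615 and 2428, and genes called lower 4169 and 4445, against 3988 and 3136. In both settings Pf4 (0.81 and 0.78), megakaryocyte factors called higher (0), integrin activation genes called lower (11) and leukocyte receptor genes called higher (1) moved, Ppbp was 0.39 and 0.35, and unscaled arrays left 2 platelet surface genes called higher. Integrin activation genes called lower numbered 10 with the percentile of detected probes, and 7 with quantile normalisation, which left 1 megakaryocyte factor higher. With normexp Gp6 was 4.99, Gp1bb 0.096, Itga2b -0.69, Gp9 -0.59, Gp1ba -0.33 and integrin activation genes lower 7. Without a filter 10759 genes were called, 7628 higher, with 2 collagen receptors and 7 ligands higher. Requiring all 8 arrays left 6 platelet surface genes lower, the mean of all probes put Gp1bb at 0.33 and Itgb3 at -0.67, and testing all probes called 12906, with 6745 higher and 6161 lower.

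Replicate numbers did not pair the arrays (same-number correlations of deviations 0.192, 0.0218, 0.0512 and -0.102, and not every array correlated best with its own number). With the replicate number as a block 6606 genes were called, 0 megakaryocyte factors higher and 1 leukocyte receptor gene lower. Replicates 1 and 2 resembled each other most in both groups, and averaging them left 5425 calls, with 2 platelet surface genes higher, 0 megakaryocyte factors higher, 2 integrin activation genes lower and 1 leukocyte receptor gene in each direction.

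Leaving out 1 array at a time gave 2 to 5 platelet surface genes higher, 1 to 2 megakaryocyte factors higher, 1 to 2 collagen receptors higher and Gp1bb from -0.28 to 0.13. It gave 5.71 to 6.10 for Gp6, -2.14 to -1.05 for Gp9, -2.04 to -0.20 for Gp1ba, -1.24 to -0.97 for Itga2b, -1.25 to -0.79 for Itgb3, 0.95 to 1.05 for Pf4 and 0.44 to 0.74 for Ppbp. Among the other genes named, 31 of their recomputed values lost a call and 13 gained one. The cause was not tested. Signals near background limit Gp9, Gp1ba and Gp1bb.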

Other observations

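Marker genes of further cell types gave these values. Of 8 tested macrophage markers 2 rose and 3 fell, the scavenger receptor gene Marco rising by 3.25 ± 0.24 (limma adjusted p = 1.83e-05). Of 5 tested monocyte markers 0 rose and 3 fell, the chemokine receptor gene Ccr2 falling by 3.64 (SE 0.34, limma adjusted p = 5.47e-05). The neutrophil gene Mpo fell by 4.66 (SE 0.42, limma adjusted p = 5.15e-05). Of 6 tested mast cell and basophil markers 1 rose and 5 fell, Il1rl1 falling by 3.90 (SE 0.23, limma adjusted p = 5.5e-06). Of 6 tested eosinophil markers 0 rose and 4 fell, Ear6 falling by 2.28 (SE 0.39, limma adjusted p = 0.0015).

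Of 7 tested osteoclast markers other than Itgb3, 2 rose and 2 fell, Ocstamp falling by 2.03 (SE 0.19, limma adjusted p = 5.93e-05). Of 3 tested erythroid markers 1 fell, Hba-a1, which was above background on no LPS-treated array and at least 2.52-fold lower (limma adjusted p = 0.0003). Of 4 tested T cell markers 1 rose and 1 fell, Cd3d at least 3.10-fold lower with no LPS-treated array above background (limma adjusted p = 0.000987). Of 4 tested natural killer cell markers 0 rose and 2 fell, Klrb1c at least 1.35-fold lower, which did not pass with the milder background correction (limma adjusted p = 0.0578), and its dimmer probe, above background on 1 LPS-treated array, differed by 1.03 in the other direction. Of 3 tested stromal markers 2 rose and 0 fell, Dcn at least 10.0-fold higher (limma adjusted p = 0.000915). Of 2 tested B cell markers, limma called 0.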
